A study of Mus musculus with 6 samples.

Results

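The 9 genes described here encode proteins of compact and non-compact myelin, or an enzyme that makes myelin lipid. They are Mbp, Mobp, Mal and Cldn11, Mag, Cnp and Mog, and Opalin and Ugt8a. They were chosen by function and taken by symbol from the deposited expression table, with earlier results of these data known, and all 9 of 9 were among the 20323 genes analysed. The RNA came from GFP-positive cells that were magnetically sorted out of the hippocampus of Nestin-CreERT2;Rosa26-mGFP mice, 1 animal per library. In these mice a tamoxifen-activated Cre under the Nestin promoter switches on membrane GFP, so that neural progenitor cells and whatever they give rise to carry the mark. All 6 animals were fed cuprizone, a copper chelator that kills oligodendrocytes, for 10 weeks and then recovered for 4 weeks. The 3 Vehicle animals were given saline that held 0.1% bovine serum albumin. The 3 Nrg animals received neuregulin 1 beta 1 (Nrg-1β1), a ligand of ErbB receptors, at 60 µg per kg per day by the series description; the sample labels write grams for the same figure, which leaves its unit unsettled. The sources used here do not give age, sex or the timing of Cre induction, and the samples hold no group without cuprizone.

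Myelin is the stack of membrane that an oligodendrocyte wraps around an axon. In compact myelin the cytoplasm is squeezed out and the membrane faces are held together by abundant small proteins, whereas the non-compact inner and outer loops keep cytoplasm and carry the molecules that contact the axon or the outside. These genes are switched on together as a progenitor becomes a myelinating cell, under transcription factors that include SOX10, OLIG2 and MYRF. Mbp and Mobp mRNA are carried along the cell's processes and translated near the growing sheath. In the hippocampus, cuprizone removes much of the myelin, and recovery depends on new oligodendrocytes made from progenitor cells. The comparison of Nrg with Vehicle asks whether the ligand altered myelin transcripts in the marked cells.

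RefSeq promoter windows (GRCm38.p6), matched by symbol, were read for 8 of the 9 genes, and Mbp was left out. Mag had 3 windows, of which the one at the outermost start was read. The windows of 5 genes are shown because the members fell into differently behaving sets in these libraries: Mag and Mal kept a nearly fixed ratio, Cnp and Mog ran together, and Mobp followed neither. Each line gives the bases before the first start annotated in RefSeq or GENCODE, 250 for Mag, Mal and Mog and 215 for Cnp and Mobp, 5′ to 3′ on the gene's strand. Capitals mark 2 motifs searched on both strands: a SOX site (ACAAAG or ACAATG) and a MYRF site (CTGGCAC or CTGGTAC).
Mag, chr7:30914923-30915172, minus strand: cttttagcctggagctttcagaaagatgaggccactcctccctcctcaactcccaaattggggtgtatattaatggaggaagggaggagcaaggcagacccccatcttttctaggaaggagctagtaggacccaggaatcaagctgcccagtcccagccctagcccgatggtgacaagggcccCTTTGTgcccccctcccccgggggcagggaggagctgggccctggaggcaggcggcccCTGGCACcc
Mal, chr2:127656696-127656945, minus strand: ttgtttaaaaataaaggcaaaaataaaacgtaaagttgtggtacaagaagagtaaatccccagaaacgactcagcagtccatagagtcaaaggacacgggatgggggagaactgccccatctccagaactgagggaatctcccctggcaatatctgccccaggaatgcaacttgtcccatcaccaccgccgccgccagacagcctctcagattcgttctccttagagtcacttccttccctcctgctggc
Cnp, chr11:100574689-100574903, plus strand: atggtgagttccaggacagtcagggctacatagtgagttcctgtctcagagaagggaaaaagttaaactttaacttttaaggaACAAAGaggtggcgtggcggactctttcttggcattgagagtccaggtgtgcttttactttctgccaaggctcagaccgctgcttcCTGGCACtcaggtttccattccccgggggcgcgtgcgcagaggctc
Mog, chr17:37023399-37023648, minus strand: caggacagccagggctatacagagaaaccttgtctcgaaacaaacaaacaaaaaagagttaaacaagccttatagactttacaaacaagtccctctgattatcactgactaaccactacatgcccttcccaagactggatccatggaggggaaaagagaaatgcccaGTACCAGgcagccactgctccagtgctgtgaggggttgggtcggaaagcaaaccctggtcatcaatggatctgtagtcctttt
Mobp, chr9:120149492-120149706, plus strand: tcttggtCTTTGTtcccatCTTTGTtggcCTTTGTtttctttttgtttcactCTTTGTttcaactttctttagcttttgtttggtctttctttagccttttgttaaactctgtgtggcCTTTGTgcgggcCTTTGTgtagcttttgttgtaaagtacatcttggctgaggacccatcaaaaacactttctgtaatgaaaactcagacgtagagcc
The MYRF letters stood in 3 of the 8 windows, those of Mag, Cnp and Mog, and in 5.92% of all 32817 windows of 250 bases. The SOX letters stood in 4 of the 8, those of Mobp, Mag, Cnp and Opalin, and in 25.2% of all windows; the Mobp window held 6 copies. An E-box (CAGCTG or CATCTG) was found in 1 of the 8, that of Opalin, and in 25.5% of all windows, and a TATA box (TATAAA) in 0 of the 8 and in 12.4%. The Mal window held none of these motifs, so Mag and Mal, whose values ran together most closely, shared none of them there. A match describes the sequence and was not tested as a binding site.

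The libraries differed strongly in depth. Vehicle libraries 1 and 3 held 72953034 and 47076006 recovered reads, and the other 4 held 567073 to 1327003. Sex-linked RNA differed as well: Xist, the RNA that silences an X chromosome, had 216 to 3255 reads in the Vehicle libraries and 1 to 3 in the Nrg libraries. Reads of Ddx3y, a Y-linked gene, numbered 15 to 29 in the Nrg libraries and 1994 in Vehicle library 3, but 82 and 1 in Vehicle libraries 1 and 2. These reads are not scaled for depth. As log2 normalized values, Ddx3y was 3.16, 2.83 and 6.96 in Vehicle libraries 1 to 3 and 7.26, 6.86 and 5.63 in Nrg libraries 1 to 3. Xist was 7.65, 9.39 and 6.07 in Vehicle and 3.84, 4.27 and 2.82 in Nrg. Vehicle library 3 thus held both RNAs, and whether its RNA came from a single animal was not tested. Xist was lower in every Nrg library than in every Vehicle library. A difference in sex between the groups therefore cannot be told apart from the treatment. The cells were labelled neural progenitor cells. Of 11 radial glia and neural progenitor markers 1 rose in Nrg and 0 fell, with 5 negative differences and a median of 0.05. The gene that rose was Sox1, a transcription factor gene of neural progenitors (difference 1.96, adjusted p = 0.0194, limma), while Nes, the nestin gene, differed by -1.65 (adjusted p = 0.0582), Prom1 by -1.58 and Vim by -1.41 without passing. The proliferation gene Mki67 had 0 reads in 2 libraries and at most 2 in any Nrg library. The 4 measured Schwann cell genes (Egr2, Pmp2, Prx and Ncmap) had a summed level of 34.1 to 49.4 normalized counts in Vehicle and 15.3 to 36.2 in Nrg, against 82911 to 180105 and 101614 to 136080 for the 9 myelin genes. Most of these Vehicle reads were of Egr2 (430, 13 and 441 in Vehicle libraries 1 to 3), so the Vehicle sum mainly reflects that gene. Each Nrg library had 1 Egr2 read.

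None of the 9 myelin genes changed between Nrg and Vehicle at an adjusted p of 0.05 (limma, over all 20323 genes), where 1.06% of all genes did, 0.625% lower and 0.438% higher in Nrg. The differences nevertheless leaned one way. Of the 9 genes 8 had a negative difference, against 47.8% of all genes, and the median was -0.46 on the log2 scale against 0.03 over all genes. With each library centred on its median, 6 of the 9 were negative, since Mbp and Mobp then had positive values, and the median of the 9 was -0.25. Ugt8a, Mag and Mal were lower in every Nrg library than in every Vehicle library, and 10.4% of all genes showed that separation in that direction. None of the 9 was higher in every Nrg library, against 7.37% of all genes. Ugt8a, Mag and Mal had an unadjusted p under 0.05 (limma), as did 13.0% of all genes in either direction and 6.86% with a negative difference. Cldn11 alone had a positive difference. All values are log2(normalized count + 4), a scale that shrinks differences of genes with few reads. Where groups are said not to overlap, this refers to that scale. In sorted bulk RNA, fewer oligodendrocyte-lineage cells and less of these transcripts per cell cannot be told apart. Markers of other cell types, among them microglia and endothelium, were also present in the libraries. Whether all of the myelin RNA came from GFP-positive cells was not tested.

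**Figure D1:**
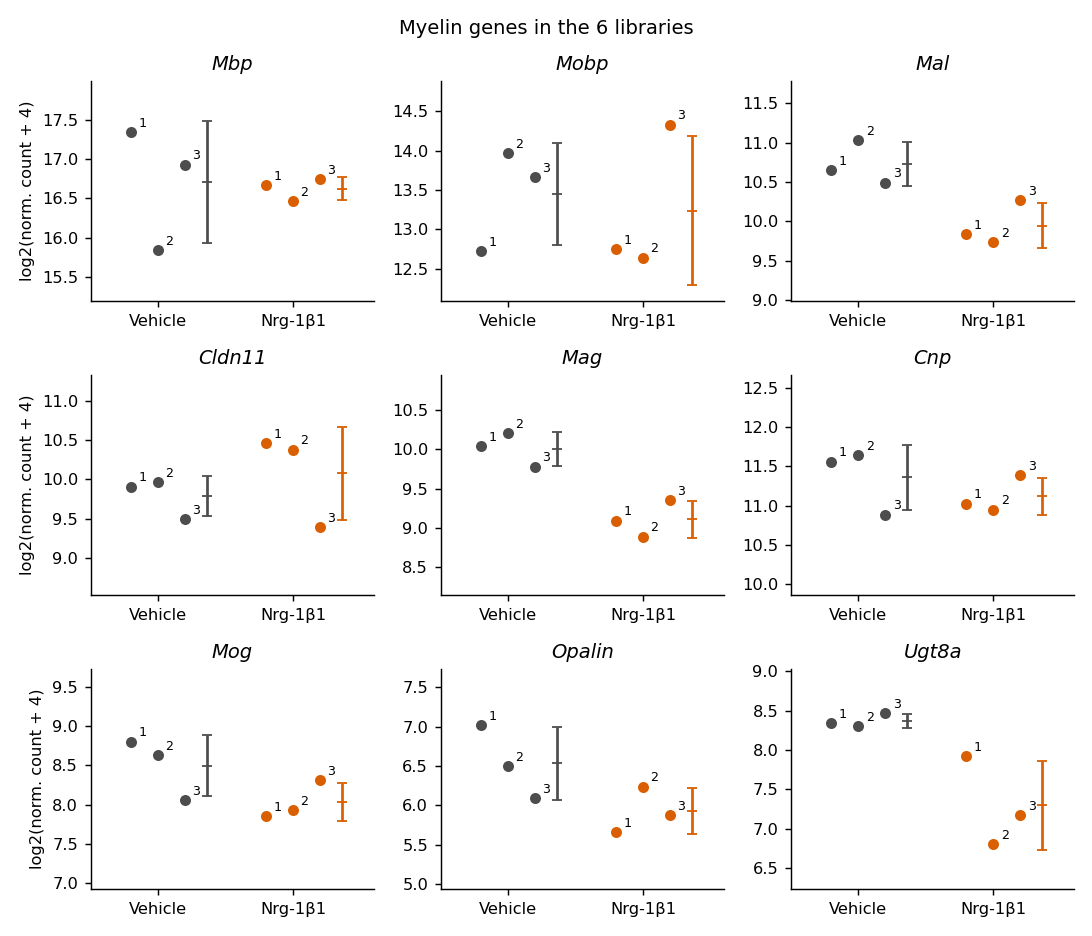
Each panel shows 1 gene, with the log2(normalized count + 4) value of the 3 Vehicle (grey) and 3 Nrg-1β1 (orange) libraries as numbered points and the group mean with its SD beside them; all panels span 2.8 log2 units. Mal, Mag and Ugt8a separate the groups, Cldn11 and Mobp split the Nrg-1β1 libraries, and Mbp is most spread among the Vehicle libraries.

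Among the genes of compact myelin, Mbp encodes myelin basic protein, which binds the cytoplasmic membrane faces to each other. Its log2 value was 17.34, 15.84 and 16.93 in Vehicle libraries 1 to 3 and 16.66, 16.46 and 16.74 in Nrg libraries 1 to 3. The Nrg libraries lay inside the wide Vehicle range, with SDs of 0.15 and 0.77, and the lowest value of all was in the shallow Vehicle library 2. The difference was -0.08 ± 1.03 (SE, n = 3 each, adjusted p = 0.979, limma), with a 95% interval from -2.24 to 2.08. That width comes partly from the fit, which takes the expected spread from genes of similar level; without this intensity trend the SE was 0.43. Mbp alone took 3.75%, 1.77% and 4.37% of the reads of Vehicle libraries 1 to 3 and 3.54%, 2.66% and 2.72% of those of Nrg libraries 1 to 3. In Vehicle library 2 the share had a Clopper-Pearson 95% interval of 1.74% to 1.79%, so its distance from the other libraries was far beyond counting error.

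Mobp encodes myelin-associated oligodendrocyte basic protein, another small basic protein of the compact sheath. It measured 12.72, 13.97 and 13.66 in Vehicle and 12.75, 12.64 and 14.33 in Nrg. Vehicle library 1 and Nrg libraries 1 and 2 were low, and Nrg library 3 was the highest of all, so the groups overlapped completely. The difference was -0.21 ± 0.54 (SE, n = 3 each, adjusted p = 0.876, limma), and the Nrg range of 1.69 was the widest of any of the 9 genes in either group. In Nrg library 3 the gene had 6796 reads, against 1329 and 1249 in Nrg libraries 1 and 2.

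Mal encodes a small proteolipid that helps sort membrane and proteins to the sheath. Its values were 10.65, 11.03 and 10.49 in Vehicle and 9.83, 9.73 and 10.27 in Nrg. The highest Nrg library stood 0.22 below the lowest Vehicle library. The difference was -0.78 ± 0.30 (SE, n = 3 each, adjusted p = 0.252, limma), which corresponds to a level 1.72 times higher in Vehicle, and it did not pass. Cldn11 encodes claudin 11, the tight junction protein that forms the radial component of central myelin. It measured 9.91, 9.96 and 9.49 in Vehicle and 10.46, 10.37 and 9.39 in Nrg. Nrg libraries 1 and 2 were above all Vehicle libraries and Nrg library 3 was below them all, for a difference of 0.29 ± 0.32 (SE, n = 3 each, adjusted p = 0.718, limma). Cldn11 and Mobp were thus split in opposite senses between Nrg library 3 and the other Nrg libraries.

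**Figure D2:**
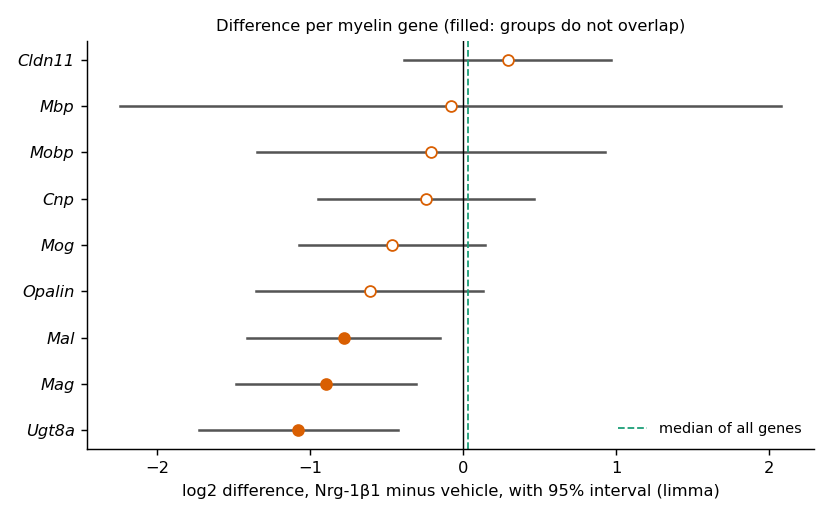
Points give the log2 difference (Nrg-1β1 minus vehicle) of each gene and lines its 95% interval from limma; filled points mark genes whose groups do not overlap, and the dashed line is the median of all genes at 0.03. The intervals of Ugt8a, Mag and Mal lie below 0 before adjustment for the number of genes tested, and that of Mbp is the widest.

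Of the genes of non-compact myelin and the outer surface, Mag encodes a sialic-acid-binding adhesion protein of the innermost layer, which faces the axon. It measured 10.04, 10.20 and 9.78 in Vehicle and 9.09, 8.89 and 9.35 in Nrg. Every Nrg library lay below every Vehicle library, with a gap of 0.43. The difference was -0.89 ± 0.28 (SE, n = 3 each, adjusted p = 0.133, limma), or 1.86 times more in Vehicle. The Nrg libraries had 105, 92 and 214 Mag reads.

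Cnp encodes the phosphodiesterase CNP, which keeps cytoplasmic channels open against the compacting action of MBP. Its values were 11.56, 11.64 and 10.89 in Vehicle and 11.03, 10.95 and 11.39 in Nrg. The groups overlapped, since Vehicle library 3 was the lowest of the 6, and the difference was -0.24 ± 0.34 (SE, n = 3 each, adjusted p = 0.76, limma). Mog encodes the immunoglobulin-like glycoprotein of the outermost lamella. It measured 8.80, 8.63 and 8.06 in Vehicle and 7.85, 7.93 and 8.31 in Nrg. Only Nrg library 3 reached into the Vehicle range, and the difference was -0.46 ± 0.29 (SE, n = 3 each, adjusted p = 0.536, limma).

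Opalin encodes a sialylated membrane glycoprotein that marks oligodendrocytes of the central nervous system. Its values were 7.02, 6.50 and 6.09 in Vehicle and 5.66, 6.24 and 5.88 in Nrg, so Vehicle library 3 lay below Nrg library 2. The difference was -0.61 ± 0.35 (SE, n = 3 each, adjusted p = 0.5, limma). Opalin had the fewest reads of the 9 genes, with 28 in Vehicle library 2 and 9, 14 and 18 in the Nrg libraries. Its share of the reads was 0.0026% in Vehicle library 2 (Clopper-Pearson 95% interval 0.00173% to 0.00376%) and 0.00136% in Nrg library 3 (0.000804% to 0.00214%). These intervals cover counting error in single libraries and not the spread between animals.

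Ugt8a encodes the ceramide galactosyltransferase that makes galactosylceramide, the main glycolipid of myelin. It measured 8.34, 8.30 and 8.47 in Vehicle and 7.92, 6.80 and 7.17 in Nrg. The Vehicle libraries lay within 0.17 of each other, and the Nrg libraries spread over 1.12, all of them lower. The log2 difference of -1.08 ± 0.31 (SE, n = 3 each, adjusted p = 0.0983, limma) was the largest of the 9 and also missed the threshold. It corresponds to a level 2.11 times higher in Vehicle. The Nrg libraries had 46, 21 and 46 Ugt8a reads, and Vehicle library 2 had 101.

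Within the set, the genes did not move as a block. After each gene was centred on its own mean over the 6 libraries, the mean over the 9 genes was 0.33, 0.30 and 0.05 in Vehicle and -0.24, -0.38 and -0.06 in Nrg. Mag and Mal were the closest pair, with Pearson r = 0.98 over the 6 libraries as a description. Their log2 difference within a library, Mal minus Mag, stayed between 0.62 and 0.92 in all 6, although both were lower in Nrg. Cnp and Mog were next (r = 0.92). Cnp minus Mog was 2.76, 3.01 and 2.83 in Vehicle and 3.17, 3.02 and 3.08 in Nrg, so the groups narrowly did not overlap. Mobp and Cldn11 were the most opposed pair (r = -0.79). Mbp was close to no other member, with a highest r of 0.20, to Opalin, and Cldn11 had no positive r with any (highest -0.06). These correlations rest on libraries that share the group difference and the depth difference.

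Differences of log2 values between myelin genes in the same library are given for the values as deposited; multiplying a library by a constant leaves them nearly unchanged, but quantile normalization does not. Mag minus Cnp was -1.52, -1.44 and -1.11 in Vehicle and -1.93, -2.06 and -2.04 in Nrg, so Mag was lower relative to Cnp in each Nrg library. Cldn11 minus Mag was -0.13, -0.25 and -0.29 in Vehicle and 1.37, 1.49 and 0.04 in Nrg. The log2 value of Cldn11 was thus below that of Mag in each Vehicle library and above it in each Nrg library, with Nrg library 3 near 0. Of the 36 possible pairs, 7 had within-library differences that did not overlap between the groups. The share over all pairs of genes was not computed. Of all single genes, an unlike measure, 17.7% did not overlap in either direction. Pairs that share a member are not independent. These pairs were inspected after their values had been seen and carry no test.

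**Figure D3:**
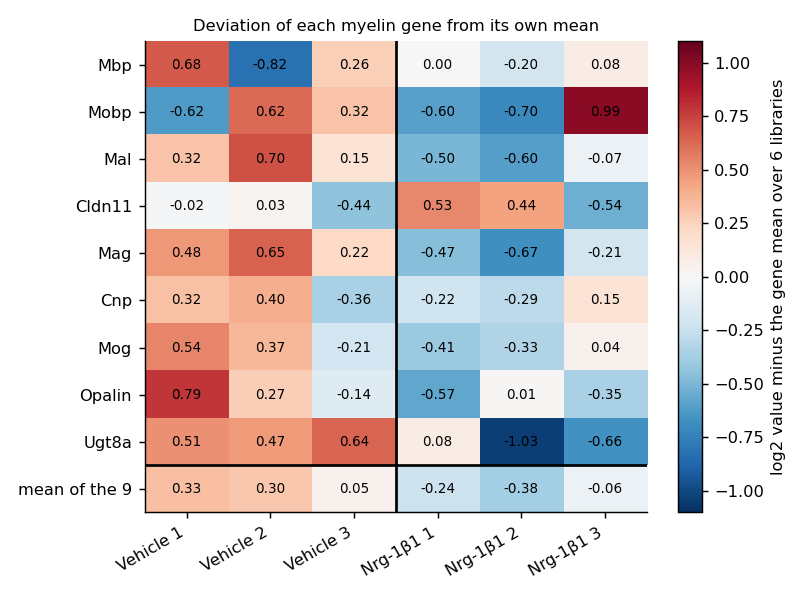
Rows are the 9 genes and their mean, columns the 6 libraries, and each cell is the log2 value minus that gene's mean over the libraries (red above, blue below). Mal and Mag share a pattern, Mobp is at 0.99 and Cldn11 at -0.54 in Nrg-1β1 library 3, and Mbp is at -0.82 in Vehicle library 2.

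Levels between genes were compared per kilobase of the union of exons annotated in GENCODE M21, which is not known to be the annotation used by the authors. As mean normalized counts per kilobase over the 6 libraries, Mbp stood at 12843, the 14th highest of 18372 genes with a length. Mobp followed at 1694, Cnp at 679, Cldn11 at 540 and Mal at 487. Mag at 195 and Mog at 184 came next, then Ugt8a at 53.9 and Opalin at 25.4. Mbp and Mobp did not overlap across libraries, with per-kilobase levels of 6927 to 19582 for Mbp and 931 to 3015 for Mobp. Cnp, Cldn11 and Mal overlapped each other over the libraries, as did Mag and Mog, and Ugt8a and Opalin. Within the same library Cnp exceeded Mal in all 6, though barely in Vehicle library 3 (519 against 516). The other orders within those sets changed between libraries. Together the 9 genes took 4.08%, 2.5% and 5.02% of the reads of the Vehicle libraries and 3.96%, 3.0% and 3.37% of those of the Nrg libraries, most of it Mbp.

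Among 35 other genes of myelin and mature oligodendrocytes, 0 rose, 1 fell and 34 did not pass, with 26 negative differences and a median of -0.25. The gene that fell was Enpp2, which encodes autotaxin, an enzyme of lysophosphatidic acid synthesis that choroid plexus epithelium also makes. It measured 10.55, 10.58 and 11.33 in Vehicle and 8.86, 8.78 and 8.94 in Nrg, a difference of -1.97 ± 0.30 (SE, n = 3 each, adjusted p = 0.00356, limma). Gsn, which encodes the actin-severing protein gelsolin, differed by -1.20 (adjusted p = 0.057, limma), the transferrin gene Trf by -0.95 and the oligodendrocyte cytoskeletal gene Ermn by -0.93, none past the threshold.

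Genes of myelin lipid synthesis went in both directions, and 0 of 18 passed (median -0.01, with 10 negative). Dhcr7, which encodes an enzyme of the end of cholesterol synthesis, differed by 1.24 (adjusted p = 0.0599, limma) and Scd2, a fatty acid desaturase gene, by 1.59. Scd2 measured 12.48, 13.26 and 12.94 in Vehicle and 15.04, 14.63 and 13.80 in Nrg. The fatty acid elongase genes Elovl1 and Elovl7 differed by -1.37 and -1.19, in the sense of Ugt8a, and had at most 10 reads in any Nrg library. None of these 4 passed.

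Among 18 transcription regulators of myelination 0 passed, and 10 differences were positive (median 0.16). Myrf, the factor that switches on the myelin genes, differed by -0.54 ± 0.29 (SE, n = 3 each, adjusted p = 0.456, limma). On the deposited scale all its Nrg values, 7.65, 7.74 and 7.80, lay below its Vehicle values, 7.92, 8.75 and 8.14. By share of the reads this separation was lost. Vehicle library 1, with 3926 of 72953034 reads, then lay below Nrg library 1, with 38 of 567073. Sox10 differed by -0.27 and Olig2 by 0.39, with overlapping groups. Olig1, Tcf7l2, Sox5 and Id2 differed by 1.11, 1.13, 1.22 and 1.02, with no overlap between groups on the deposited scale and without passing. Id2 encodes an inhibitor of basic helix-loop-helix factors. In the premyelinating list 0 of 12 passed (median 0.24). Enpp6, a marker of newly forming oligodendrocytes, differed by -1.38 with 2, 4 and 1 reads in the Nrg libraries. Rras2 differed by -1.29, Cnksr3 by 0.80 and Casr by 1.00, the last with 0 to 3 reads in the Nrg libraries.

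In the list of axoglial junction and node genes 0 of 12 passed, and 8 differences were positive (median 0.43). Scn8a, a nodal sodium channel gene, the ankyrin genes Ank3 and Ank2, and Cntnap1, a paranodal adhesion gene, differed by 1.07, 0.90, 0.80 and 0.98. Their groups did not overlap on the deposited scale, and neurons express all 4. In the list of ErbB receptor genes with Nrg1 and Lrig1, 1 of 6 rose. This was Lrig1, which encodes a restraint on ErbB receptors, with 8.10, 8.63 and 8.21 in Vehicle and 10.05, 9.30 and 9.55 in Nrg (difference 1.32, adjusted p = 0.0346, limma). Erbb3, the neuregulin receptor of the oligodendrocyte lineage, had 4, 3 and 1 reads in the Nrg libraries, and no difference was detectable at this depth (-1.07 ± 0.56, SE, n = 3 each, adjusted p = 0.447, limma). Egfr differed by 0.65 and Erbb4 by 0.78 without passing. With depth as a term, without Vehicle libraries 1 and 2, or without Vehicle library 2 or any 1 Nrg library, 0 of the 20323 genes passed by limma, Enpp2 and Lrig1 included.

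**Figure D4:**
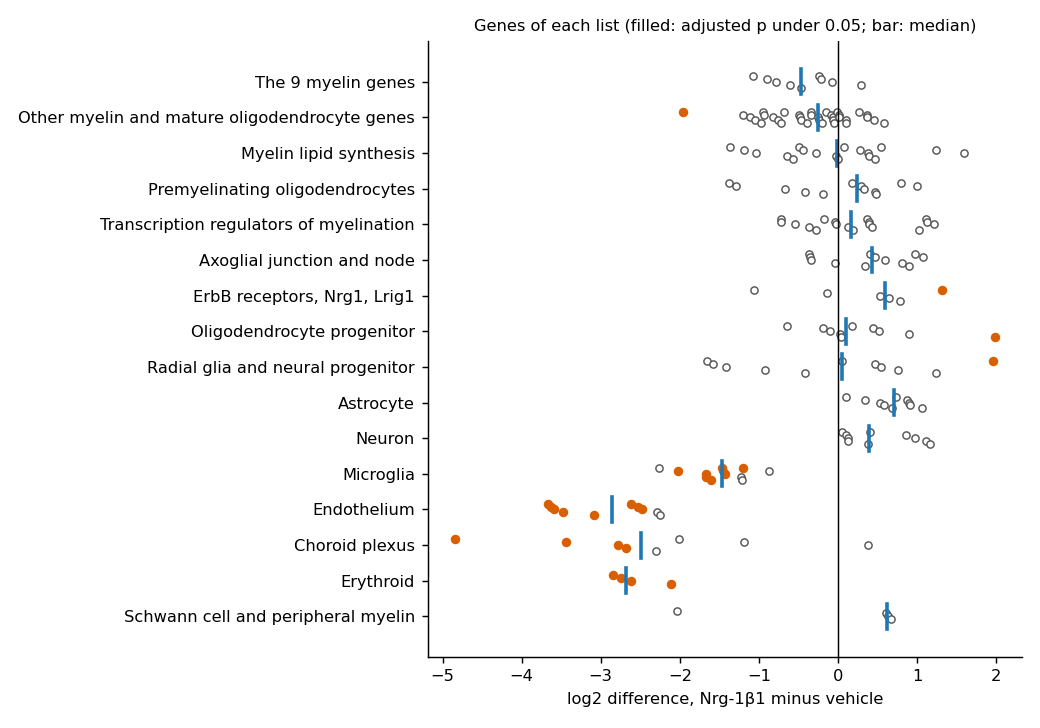
Each circle is 1 gene, placed by its log2 difference (Nrg-1β1 minus vehicle); filled circles passed an adjusted p of 0.05, and the blue bar is the median of the list. The 9 myelin genes have a median of -0.46, between the lists near 0 and the microglial, endothelial, choroid plexus and erythroid lists, whose medians are -1.46, -2.85, -2.49 and -2.68.

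Markers of other cell types moved between the same libraries. Of 12 microglial markers 7 fell, among them P2ry12, Siglech, Fcrls, Ctss, Csf1r and Cx3cr1, all 12 were separated with lower Nrg values, and their summed level was 7608 to 12844 normalized counts in Vehicle and 2805 to 3667 in Nrg. Of 10 endothelial markers 8 fell, Ly6c1, Slco1a4, Cldn5, Ly6a, Abcb1a, Flt1, Pecam1 and Tek (648 to 3137 against 119 to 143), and of 8 choroid plexus markers 4 fell, Ttr, Kl, Kcne2 and Kcnj13 (1577 to 4924 against 158 to 237), with Kcne2 at 0 reads in all Nrg libraries. The 4 measured erythroid markers, Hba-a1, Hba-a2, Hbb-bs and Alas2, all fell (3291 to 9484 against 438 to 1994). None of 10 astrocyte or 10 neuron markers passed, and all 20 had a positive difference, with medians of 0.71 and 0.39; the smallest p were those of Sox9, Aldh1l1, Gja1 and Slc1a3 and of Slc17a7, Nrgn, Snap25 and Gad1. Of 10 oligodendrocyte progenitor markers 1 rose, C1ql1 (difference 1.99, adjusted p = 0.0382, limma), with 3 negative differences and a median of 0.11. Pdgfra differed by 0.90, Ptprz1 by 0.44 and Cspg4 by -0.64 without passing. The part of these shifts in the values of the myelin genes was not tested.

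By a rule that took the 10 non-member genes most correlated with the mean of the 9, among 5532 genes with at least 10 reads in every library, the closest were Ctsb (r = 0.99), Lgi3 (0.98), Creg1, Commd8, Eif4a2, Lgmn, Itgam, Ufd1, Rtkn and Vsir (0.97 to 0.95). Ctsb and Lgmn encode lysosomal proteases, and Itgam the microglial integrin CD11b. Ctsb measured 10.70, 10.61 and 10.26 in Vehicle and 9.90, 9.73 and 10.23 in Nrg, a difference of -0.57. Of the 10 genes 8 had lower, non-overlapping Nrg values, so the likeness includes the group difference itself.

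**Figure D5:**
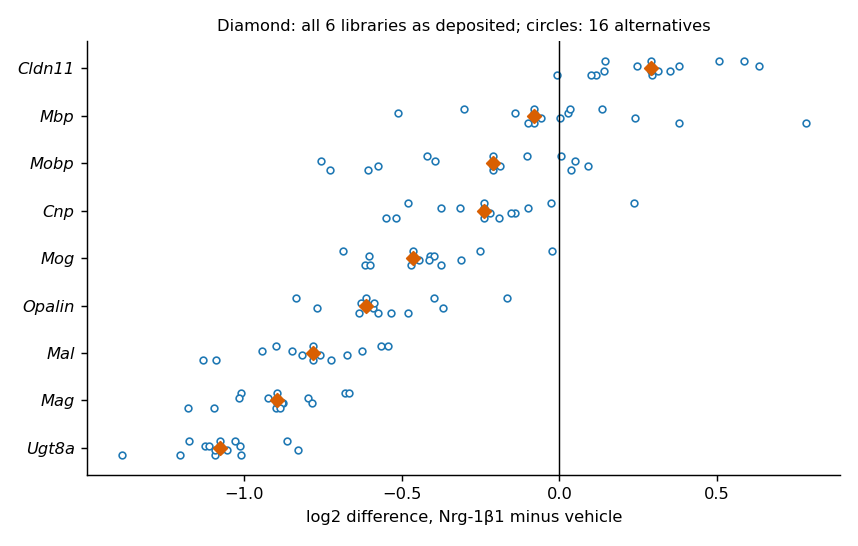
The diamond is the log2 difference of each gene with all 6 libraries as deposited, and each circle the value under 1 of 16 alternative fits. Ugt8a, Mag, Mal, Opalin and Mog stay below 0 in all 16, while Mbp is above 0 in 7 and Mobp in 4.

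Because deep libraries were found only in Vehicle, the differences were also fitted with a term for depth, so that they rest on Vehicle library 2. Ugt8a, Mag and Mal then differed by -1.01, -1.09 and -1.09, and Mbp by 0.78. Without Vehicle libraries 1 and 2, whose Ddx3y levels were low, only Vehicle library 3 remained in its group. That library also held Xist RNA (log2 value 6.07, against 2.82 to 4.27 in Nrg), so it did not match the Nrg libraries in sex-linked RNA. Against it, Ugt8a, Mag and Mal differed by -1.17, -0.67 and -0.54. In that fit Mog (-0.03) and Opalin (-0.17) were close to 0, and Cnp was at 0.24. The median of the 9 genes was -0.60 with the depth term and -0.30 against Vehicle library 3 alone, and none of the 9 genes passed in any of the 16 alternatives.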

How the data were processed

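RNA from GFP-positive hippocampal cells was sequenced in 6 libraries, 3 Vehicle and 3 Nrg, each from 1 mouse, and samples were grouped by their titles. Trimmomatic and Bowtie2 were used, per the submitters' processing notes. The sources used here give no versions, genome build, counter, strand setting or normalization. The authors deposited log2 values. The table has 27102 genes, 6779 blank in all libraries and 20323 analysed. After 4 was subtracted from the unlogged values, all values were whole multiples of 1 step per library within 0.02 of a read, so they were read as log2(normalized count + 4) and whole reads were recovered; this comes from the values, not a stated method. Of genes with only a number, 980 of 1917 were named from RefSeq.

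Groups were compared with limma 3.58.1 (R 4.3.3) with an intensity trend, fitted to the deposited log2 values, with group as the only term and Benjamini-Hochberg adjustment at 0.05 over all analysed genes; all adjusted p-values come from it. The script was tested on simulated data. With 3 libraries a group, an exact two-sided permutation test of 1 gene cannot go below 0.1. Count models were not run on a log2 table. Limma-voom on the recovered reads, limited to genes with a mean of at least 50 normalized counts, was an alternative. Other alternatives were the log offset (1), a minimum mean level of 50 normalized counts, no trend, median centring, quantile normalization, a replicate block, depth class, leaving out libraries, and, added after seeing the data, library totals. Intervals are 95% Clopper-Pearson on reads without molecular identifiers and cover counting error only.

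The members and lists were chosen with earlier results of these data known. All 9 members are described; of each other list, genes past the threshold and otherwise the smallest p up to 4 are given. Myrf, Sox10, Olig2, Erbb3 and the library checks were added by name, and pairs of members after their values were seen. The results of 2 other genes are not reported here.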

Additional observations from a re-analysis of the deposited data

How the results depend on the processing

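The number of changed genes among all 20323 was 216 as deposited and moved with most choices. It was 129 with an offset of 1, 21 without the intensity trend and 65 after quantile normalization (12 higher, 53 lower). Median centring gave 499 (335 higher, 164 lower, with the median of all genes at 0.25). The replicate block gave 627, and read depth class as a term gave 0. At a minimum mean level of 50 normalized counts only 6731 genes were tested, and 49 changed. Limma-voom, run on those 6731 genes only, gave 1. Leaving out 1 library gave 0 to 56. Same-numbered libraries of the groups did not deviate together (correlations of -0.13, -0.002 and -0.18). With 3 libraries of unequal depth in a group, such correlations cannot exclude pairing, which the labels do not state. The block changed no call among the 9 myelin genes.

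The number of changed myelin genes was 0 under all 16 alternatives. Their median moved to -0.25 with median centring and -0.30 without Vehicle libraries 1 and 2, and was -0.68 to -0.37 when 1 library was left out. Of 144 member results 131 kept their sign and stayed short of the threshold. The other 13 changed sign. Mbp was 0.13 with median centring, 0.38 after quantile normalization, 0.0267 with limma-voom, 0.78 with the depth term, 0.24 without Vehicle library 1, 0.03 without Vehicle library 3 and 0.00105 without Nrg library 2, with a range of -0.51 to 0.24 when 1 library was left out. Mobp was 0.00447 with median centring, 0.05 without Vehicle library 2, 0.04 without Nrg library 1 and 0.0903 without Nrg library 2, with a range of -0.757 to 0.0903. Cldn11 was -0.00799 after quantile normalization, and Cnp 0.24 without Vehicle libraries 1 and 2. Over the 101 genes of the other pathway lists 2 changed; this was 7 with median centring, 5 with the replicate block, 1 at the minimum level, quantile normalization or library totals, 0 without the trend, with limma-voom, with the depth term or without Vehicle libraries 1 and 2, and 0 to 1 without 1 library. Their median, -0.04, was 0.17 with median centring, -0.17 after quantile normalization and 0.0758 with limma-voom. The minimum level and limma-voom covered only 78 of the 101 genes. The cause of these shifts was not tested, and neither was the part of the smaller gene set at the minimum level and with limma-voom.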
